A study of Mus musculus with 6 samples.

Results

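The MHC class II pathway was followed through 7 genes of the 24411 in the RNA-seq tables: H2-Aa, H2-Ab1, H2-Eb1, H2-DMa, H2-DMb1, Cd74 and Ciita. They were chosen by name and each was found by its exact symbol. The study asked what loss of Brd9, the bromodomain subunit that defines the non-canonical BAF chromatin remodelling complex, does to the expression program of mouse hematopoietic stem and progenitor cells. Cells of genotype CD45.2(+) Mx1-Cre Brd9fl/fl (Brd9 KO, 3 libraries) were set against cells of genotype CD45.2(+) Brd9fl/fl (control, 3 libraries), both on C57BL/6. All animals received 3 pIpC injections of 20 mg/kg, and marrow cells were collected 8 weeks later. Mx1-Cre is driven by an interferon-responsive promoter that is not limited to blood cells, pIpC itself induces interferon, and the controls carry no Cre, so deletion of Brd9 and presence of Cre cannot be told apart. The series design has primary mice injected 4 weeks after birth, whereas the sample labels describe transplant recipients. The labels name lineage-negative marrow, and the study's methods name sorted Lin-c-Kit+ cells.

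MHC class II molecules are pairs of an alpha and a beta chain that carry peptides from endocytosed protein to the surface of dendritic cells, B cells and macrophages, where CD4+ T cells read them. H2-Aa and H2-Ab1 encode the I-A pair and H2-Eb1 the I-E beta chain, Cd74 encodes the invariant chain that occupies the groove until the molecule reaches an endosome, and H2-DMa and H2-DMb1 encode the DM pair that exchanges the last invariant chain fragment for peptide. Ciita, the class II transactivator, does not bind DNA itself but docks on the factors RFX, CREB and NF-Y that sit on the X and Y boxes of class II promoters, and its level usually sets whether a cell makes class II. In bone marrow, mature antigen-presenting cells carry most class II, while many stem and progenitor cells carry little.

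The promoter motifs through which Ciita is known to act on class II genes are shown first. Windows running from 250 bases before to 50 after an annotated transcript start (RefSeq, GRCm38.p6) were held for 8 of 11 class II genes looked up, the others being H2-Ab1, Cd74 and Ciita. Each was searched on both strands for GNAAC, the core of an X box, lying 20 to 40 bases before ATTGG, the Y box that NF-Y reads. This spacing was chosen after the windows had been seen. The pair was found in 6 of the 8, namely the members H2-Aa, H2-Eb1 and H2-DMb1 and the other chains H2-Eb2, H2-Oa and H2-Ob, and in 3.41% of all 32851 windows of the same length. ATTGG alone stood in 8 of 8 and in 37.4% of all windows, and the H2-DMa and H2-DMb2 windows had no such pair. A match is a description of the letters, not a measured binding site. The stretch around each pair follows, 5′ to 3′ on the gene's strand, with both motifs in capitals.
H2-Aa, minus strand, chr17:34287857-34287914: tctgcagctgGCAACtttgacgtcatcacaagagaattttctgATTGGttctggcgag
H2-Eb1, plus strand, chr17:34305766-34305822: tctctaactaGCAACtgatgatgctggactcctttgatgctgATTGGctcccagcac
H2-Eb2, plus strand, chr17:34325533-34325589: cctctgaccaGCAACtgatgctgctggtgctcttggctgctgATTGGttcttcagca
H2-DMb1, plus strand, chr17:34153087-34153144: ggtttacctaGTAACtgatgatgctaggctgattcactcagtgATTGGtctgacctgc
H2-Oa, plus strand, chr17:34092293-34092350: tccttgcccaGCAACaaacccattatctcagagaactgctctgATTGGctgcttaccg
H2-Ob, plus strand, chr17:34238808-34238862: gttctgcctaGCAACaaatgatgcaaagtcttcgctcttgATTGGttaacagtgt
The spacer between the motifs measured 28 bases in H2-Aa, H2-DMb1 and H2-Oa, 27 in H2-Eb1 and H2-Eb2, and 25 in H2-Ob.

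The libraries held 21151031 to 28500168 expected counts, the gene-level read estimates of RSEM. Values below are CPM (read counts relative to library size) scaled by TMM, a correction for library composition, unless TPM, a length-scaled abundance, is named. Brd9 itself measured 15.6, 13.5 and 21.03 CPM in Brd9 KO and 45.9, 49.1 and 52.1 CPM in control, a log2 fold change of -1.56 ± 0.17 (SE; edgeR quasi-likelihood adjusted p = 0.00345). Brd9 KO replicate 3 stood apart from the other 5 libraries on the second principal component, which held 27% of the variance. Of 8 progenitor markers, Kit and Cd34 averaged 238 and 352 CPM in Brd9 KO, against 221 and 316 CPM in control, and neither was called. Mpo averaged 5248 CPM in Brd9 KO and 10316 CPM in control (edgeR adjusted p = 0.00574). Gata2 averaged 502 and 208 CPM (edgeR adjusted p = 0.00369). The 8 markers summed to 6490 to 6670 CPM in Brd9 KO and 10500 to 12000 CPM in control, without overlap. Mpo made up most of each sum, and the means of Kit, Cd34 and Gata2 were higher in Brd9 KO. A sum without Mpo was not taken, so the gap does not describe the markers as a set. Of the genes, 12953 passed the filter on low counts, and one was called when its edgeR p-value, after Benjamini-Hochberg adjustment across them, was under 0.1. By that rule 1999 genes were called, 1190 higher and 809 lower in Brd9 KO. Scaling by library totals gave 1402 higher and 489 lower calls, and limma on log2(TPM + 1) gave 1114 higher and 224 lower.

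No difference between Brd9 KO and control in the 7 class II pathway genes passed the test, and each was smaller than the range within Brd9 KO. With edgeR, 0 of 7 were called, where 15.4% of all tested genes were called in either direction, 9.19% higher and 6.25% lower. The count was also 0 at an unadjusted p under 0.05, with DESeq2 and with limma-voom. For 0 of 7 did the Brd9 KO and control values fail to overlap, against 33.5% of all tested genes. The members' median log2 fold change was -0.13, beside 0.02 for all genes tested. The Brd9 KO libraries disagreed among themselves, and without replicate 3 of that group 5 of the 7 were called lower, as given further on. In bulk RNA, fewer cells of a type and less RNA per cell cannot be told apart.

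The classical chains were spread widely in Brd9 KO. H2-Aa measured 21.6, 26.7 and 49.6 CPM in Brd9 KO replicates 1, 2 and 3, against 41.7, 28.6 and 39.1 CPM in control replicates 1, 2 and 3. Brd9 KO replicate 3 was the highest of the 6 and the other Brd9 KO libraries the lowest, so the groups overlapped. Its log2 fold change was -0.16 ± 0.30 (SE; 95% confidence interval -0.86 to 0.53; edgeR adjusted p = 0.753). H2-Ab1, its partner chain, measured 43.0, 42.5 and 71.4 CPM in Brd9 KO and 65.9, 47.0 and 58.4 CPM in control, and its log2 fold change was -0.13 ± 0.22 (-0.64 to 0.38; adjusted p = 0.737). Here too Brd9 KO replicate 3 was above every control and the other Brd9 KO libraries were below every control. H2-Eb1 measured 11.7, 15.8 and 34.7 CPM in Brd9 KO and 24.0, 19.2 and 23 CPM in control, with a log2 fold change of -0.09 ± 0.36 (-0.92 to 0.74; adjusted p = 0.888). The same pattern of libraries held for H2-Eb1. H2-Eb1 overlaps the antisense gene Gm20513, and since the labels call the libraries unstranded while the methods name a stranded kit, its reads may include that gene's.

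The DM genes had the lowest central estimates among the members. H2-DMa measured 91.9, 79.0 and 137 CPM in Brd9 KO, against 157, 101 and 142 CPM in control. Brd9 KO replicate 3 fell between the controls and the other Brd9 KO libraries were below all 3 of them. The log2 fold change of H2-DMa was -0.38 ± 0.23 (95% confidence interval -0.92 to 0.16; adjusted p = 0.327), and the Brd9 KO mean was 76.9% of the control mean. H2-DMb1 measured 43.7, 39.6 and 67.3 CPM in Brd9 KO and 67.4, 47.2 and 65.1 CPM in control, with a log2 fold change of -0.26 ± 0.22 (-0.77 to 0.25; adjusted p = 0.477). The order of the libraries was like that of H2-DMa, with the highest Brd9 KO library inside the control range. H2-DMb1 shares reads with its near copy H2-DMb2: neither had a whole expected count in any library, while their sum was whole in all 6. H2-DMb1 took 94.2% to 97.0% of that sum, so the division between the copies is uncertain but small. H2-DMa overlaps Brd2 on the opposite strand.

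The invariant chain gene Cd74, on chromosome 18, measured 102, 121 and 241 CPM in Brd9 KO, against 139, 121 and 148 CPM in control. Brd9 KO replicate 3 stood far above the other 5 libraries, and Brd9 KO replicate 1 was below every control. Brd9 KO replicate 2 was level with the lowest control, at 120.92 against 121.2 CPM. The log2 fold change of Cd74 was 0.18 ± 0.30 (95% confidence interval -0.50 to 0.87; adjusted p = 0.722).

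Ciita, the transactivator, was scarce, at 1.31, 2.73 and 1.59 CPM in Brd9 KO and 1.10, 1.18 and 2.13 CPM in control. These values rest on 32, 75 and 33 reads in Brd9 KO and 29, 28 and 58 reads in control. Its highest library was Brd9 KO replicate 2, not replicate 3, and the groups overlapped. The log2 fold change of Ciita was 0.35 ± 0.39 (95% confidence interval -0.54 to 1.24; adjusted p = 0.578). The gene lies at chr16:10480059-10528418 and overlaps Dexi on the opposite strand.

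**Figure D1:**
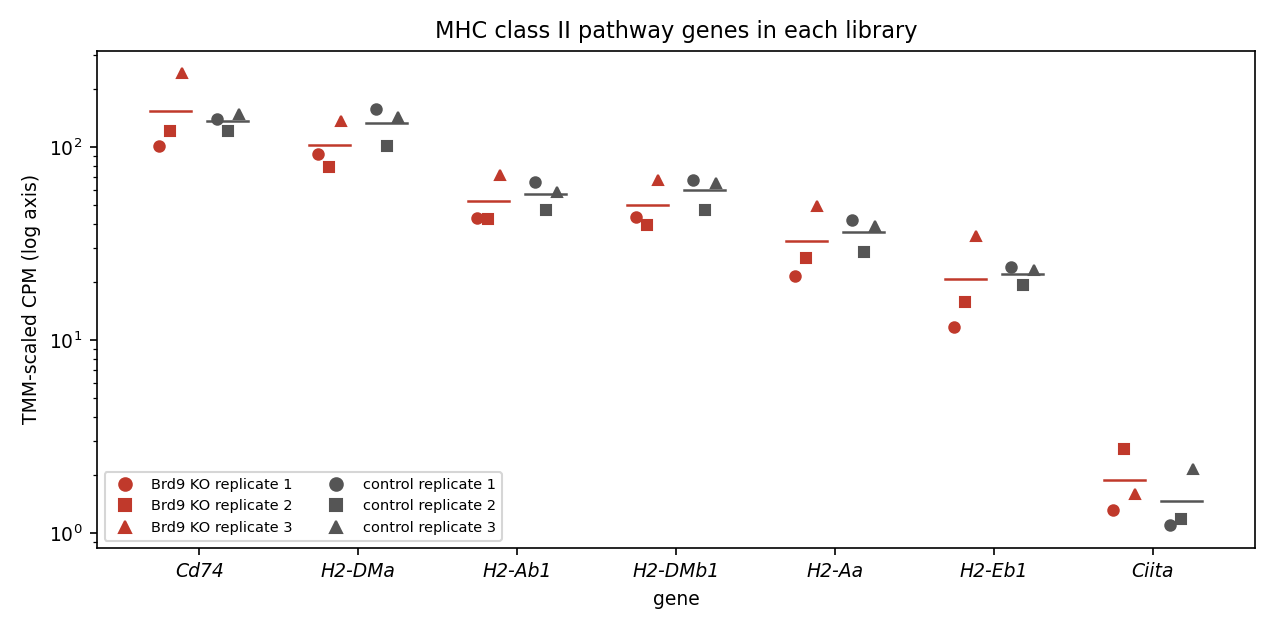
TMM-scaled CPM (log axis) of the 7 genes in each of the 3 Brd9 KO (red) and 3 control (grey) libraries, with horizontal bars at the group means. Brd9 KO replicate 3 (red triangles) is the highest of the 6 libraries for H2-Aa, H2-Ab1, H2-Eb1 and Cd74, and the groups overlap for all 7 genes.

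The order of transcript levels was the same in both groups. On the TPM scale, averaged over the 6 libraries, Cd74 was at 182 TPM and H2-DMa at 104 TPM, the highest and second highest of the members in every library. H2-Ab1 averaged 71.3 TPM and H2-DMb1 65.6 TPM, and these neighbours exchanged places between libraries, so they did not differ beyond their spread. H2-Aa at 51.2 TPM, H2-Eb1 at 18.7 TPM and Ciita at 0.453 TPM held the fifth, sixth and seventh places in every library. Cd74 ranged from 143.5 to 278.67 TPM, and Ciita from 0.24 to 0.85 TPM. Among all genes tested, Cd74 sat at the 94.1 percentile of TPM and Ciita at the 5.6 percentile. The genes for chains and loading factors were well covered by reads and the gene for their transactivator barely was.

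Leaving out Brd9 KO replicate 3 turned 5 of the 7 genes into calls. In that comparison of 2 Brd9 KO with 3 control libraries, H2-Eb1 was called lower at a log2 fold change of -0.68 ± 0.17 (SE; edgeR adjusted p = 0.0352) and H2-DMa at -0.64 ± 0.19 (adjusted p = 0.0496). H2-Aa was at -0.60 ± 0.18 (adjusted p = 0.055), H2-DMb1 at -0.53 ± 0.16 (adjusted p = 0.0566) and H2-Ab1 at -0.42 ± 0.15 (adjusted p = 0.0782). Cd74 at -0.29 ± 0.13 (adjusted p = 0.142) and Ciita at 0.46 ± 0.42 (adjusted p = 0.445) remained uncalled. The background moved as well: 15.3% of the 13124 genes tested were called lower in the same comparison. Leaving out any of the other 5 libraries called 0 of 7, and so did each alternative that kept all libraries. No label sets Brd9 KO replicate 3 apart, and which of the 2 results describes the genotype was not tested.

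**Figure D2:**
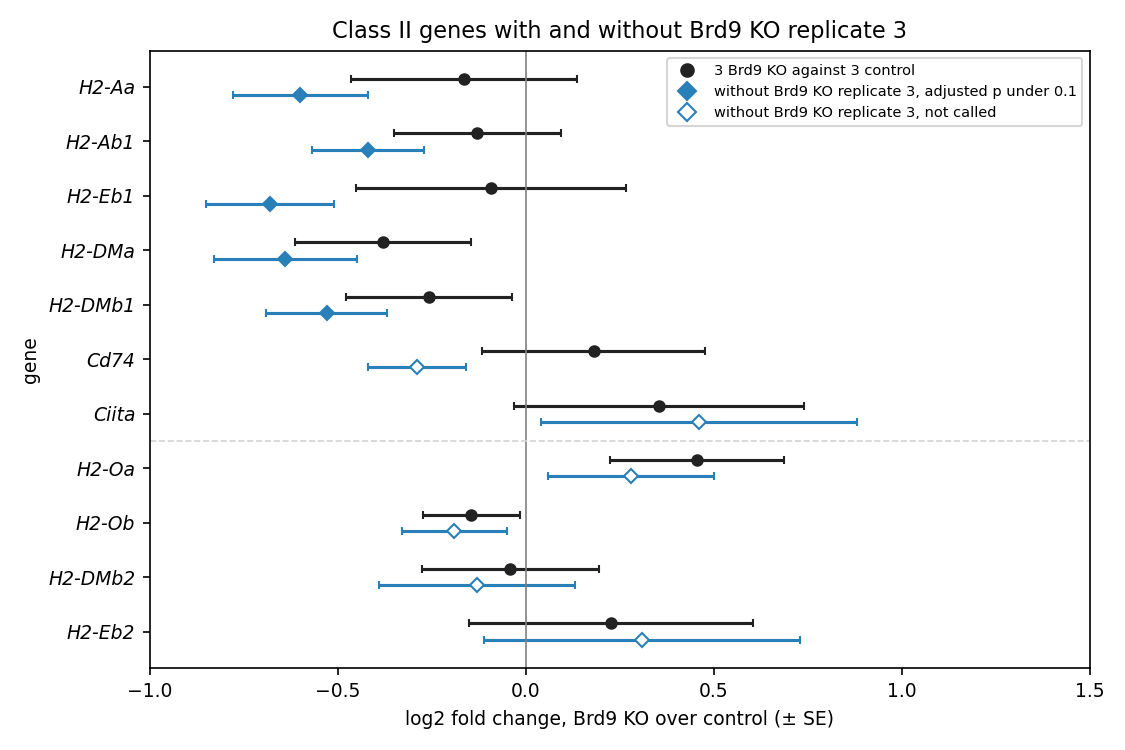
Log2 fold change, Brd9 KO over control, with its SE for the 7 genes (above the dashed line) and the other class II chains (below), from all libraries (black circles) and without Brd9 KO replicate 3 (blue diamonds, filled where the adjusted p is under 0.1). The 5 filled diamonds are H2-Aa, H2-Ab1, H2-Eb1, H2-DMa and H2-DMb1, at -0.68 to -0.42.

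The structural genes moved as a block from library to library, and Ciita did not move with them. Relative to the control mean, the members' median log2 level was -0.44, -0.43 and 0.34 in Brd9 KO replicates 1, 2 and 3, and 0.19, -0.27 and 0.12 in control replicates 1, 2 and 3. Control replicate 2 was the lowest control for all members but Ciita. Over the 6 libraries, Pearson's r of log2 CPM ranged from 0.61 to 0.986 among the 15 pairs without Ciita, with H2-DMa and H2-DMb1 the closest pair and H2-DMa and Cd74 the loosest. The 6 pairs with Ciita had r from -0.35 to 0.085. These points share libraries and their scaling, and at 28 to 75 reads Ciita carries more counting noise than the others.

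Outside the members, the 5 genes whose log2 CPM followed the members' mean most closely over the 6 libraries were Cysltr1 (r = 0.987), Prss30 (0.983), Plau (0.979), Mgst1 (0.979) and Fcgrt (0.978). Cysltr1 encodes a cysteinyl leukotriene receptor, Plau the urokinase plasminogen activator, Mgst1 a microsomal glutathione transferase and Fcgrt the neonatal Fc receptor. None was called, and each was picked from 12953 genes for its likeness. Without Brd9 KO replicate 3, Mgst1 (-0.65, adjusted p = 0.0358), Plau (-0.54, 0.0785) and Fcgrt (-0.61, 0.095) were called lower. Mgst1 measured 34.1, 37.2 and 74.4 CPM in Brd9 KO and 57.7, 44.1 and 65.3 CPM in control, with replicate 3 the highest in Brd9 KO. A choice by likeness over the same libraries favours this order and those calls, so neither is a separate finding.

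The non-classical and minor class II chains were not called either, 0 of 4 tested. The same count held at an unadjusted p under 0.05, with DESeq2 and with limma-voom, but H2-Oa was called higher when TPM replaced counts. H2-Oa and H2-Ob encode the DO pair, which binds DM and restrains peptide exchange. H2-Oa measured 16.2, 12.95 and 20.2 CPM in Brd9 KO, against 14.5, 8.77 and 12.6 CPM in control, with a log2 fold change of 0.46 ± 0.23 (SE; 95% confidence interval -0.08 to 0.99; edgeR adjusted p = 0.24). On the TPM scale it measured 28.2, 24.6 and 28.5 TPM in Brd9 KO and 18.3, 13.85 and 18.8 TPM in control, without overlap, and limma on log2(TPM + 1) called it at 0.65 (adjusted p = 0.0602), where the median of all genes was 0.18, and on log2(TPM + 0.1) at 0.68 (0.0552). H2-Oa overlaps the antisense gene BC051537. H2-Ob was tighter, at 14.0, 14.7 and 15.8 CPM in Brd9 KO and 16.1, 15.0 and 18.0 CPM in control, with a log2 fold change of -0.14 ± 0.13 (adjusted p = 0.496). H2-Ob did not share the high value of Brd9 KO replicate 3 seen in the classical chains. H2-DMb2 had a log2 fold change of -0.04 ± 0.24 and H2-Eb2, with 11 to 27 reads a library, one of 0.23 ± 0.38. The I-E alpha gene, which C57BL/6 mice do not express as a working chain and which the files list as H2-Ea-ps, had 0 reads in each Brd9 KO library and 1, 0 and 0 in control, and was not tested.

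Ratios between chains within a library remove the level that all chains share. Of 6 such ratios of TPM, picked after the values had been seen, DO alpha over DM alpha (H2-Oa/H2-DMa) was set apart most: 0.304, 0.282 and 0.253 in Brd9 KO, against 0.159, 0.149 and 0.152 in control. All 3 Brd9 KO libraries, replicate 3 included, were above all 3 controls, and the mean ratio was 1.82-fold that of control. An exact two-sided permutation test gave p = 0.1, the smallest that 3 against 3 allows, and 0.3 after Benjamini-Hochberg adjustment over the 6 ratios, so this test cannot pass a threshold of 0.05. With any library left out the fold was 1.74 to 1.91. The genes used overlap antisense genes, as given above.

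DM alpha over DM beta (H2-DMa/H2-DMb1) was 1.57, 1.48 and 1.51 in Brd9 KO and 1.73, 1.59 and 1.62 in control, also without overlap but only 0.922-fold in the mean (exact permutation p = 0.1, adjusted 0.3). Invariant chain over I-A beta (Cd74/H2-Ab1) was 2.27, 2.72 and 3.23 in Brd9 KO and 2.02, 2.47 and 2.43 in control, with overlap (exact permutation p = 0.3, adjusted 0.6). The I-A alpha to beta ratio was 0.955-fold, the I-E beta to I-A beta ratio 0.969-fold and the H2-Ob/H2-DMb1 ratio 1.11-fold that of control, each with overlap and exact permutation p of 0.8, 0.9 and 0.6.

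**Figure D3:**
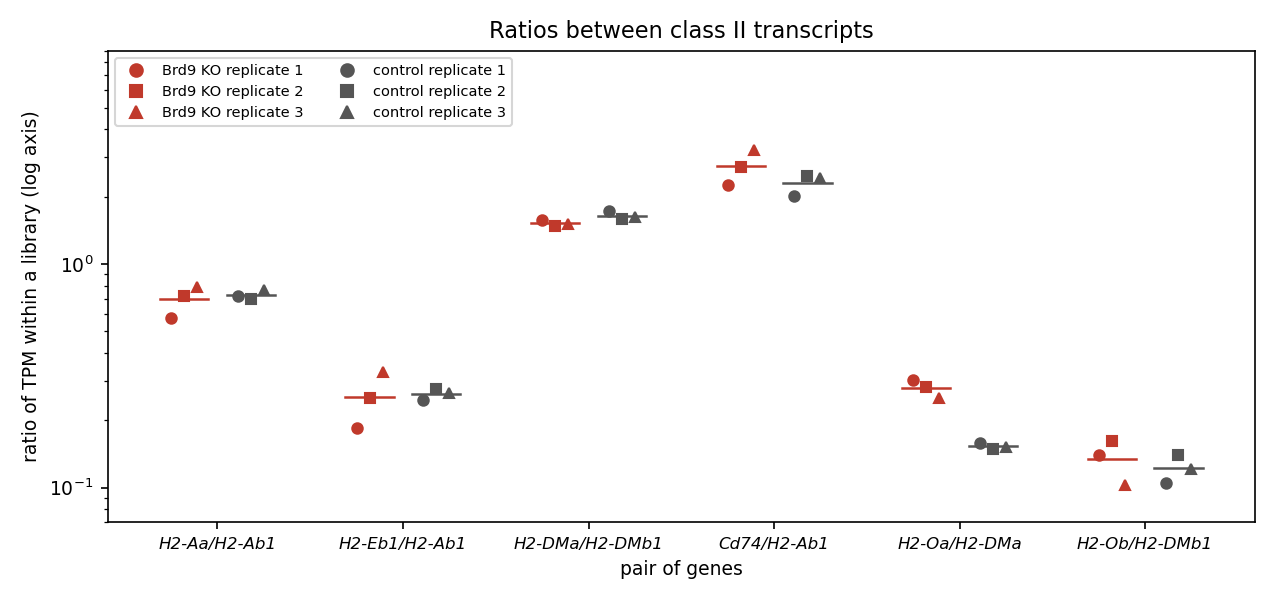
Ratios of TPM between 6 pairs of class II transcripts within each library (log axis), Brd9 KO in red and control in grey, with bars at group means. H2-Oa/H2-DMa lies at 0.253 to 0.304 in Brd9 KO and 0.149 to 0.159 in control.

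Apart from Cd74 and Ciita, the members lie together in the class II region of chromosome 17. In the GENCODE annotation H2-DMa lies at chr17:34119541-34139101, H2-DMb1 at chr17:34153072-34160230, H2-Ab1 at chr17:34257689-34269419, H2-Aa at chr17:34282744-34287823 and H2-Eb1 at chr17:34305867-34316674. Between H2-Oa and H2-Eb2, a span of 249.0 kb (RefSeq, GRCm38.p6), 14 of 15 annotated genes were in the files, 9 of them class II chains. None of the 14 was called, and with edgeR 1 had an unadjusted p under 0.05; DESeq2 and limma-voom also called 0. That gene was Psmb8, an immunoproteasome subunit that serves class I peptides, at 247, 209 and 288 CPM in Brd9 KO and 373, 294 and 291 CPM in control, without overlap (log2 fold change -0.37 ± 0.15, adjusted p = 0.173). Without Brd9 KO replicate 3, 7 of the 14 were called lower, the 5 members here together with Psmb8 (-0.49, adjusted p = 0.0546) and Tap2 (-0.35, 0.0672). In that comparison 15.3% of all tested genes were called lower. Of the 14, 11 had a log2 fold change below 0, and the 3 above were H2-Oa, H2-Eb2 and Brd2. Brd2, a bromodomain gene beside H2-DMa, was at 0.10 ± 0.10. The peptide transporter genes Tap1 and Tap2 were at -0.13 ± 0.10 and -0.20 ± 0.14, and Psmb9 at -0.24 ± 0.18. Tap1, Tap2, H2-Ab1, H2-Ob and H2-DMb2 took a value above 0 when TPM replaced counts, a scale on which the median of all genes was 0.18 with a pseudocount of 1. All 5 stayed below that median.

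**Figure D4:**
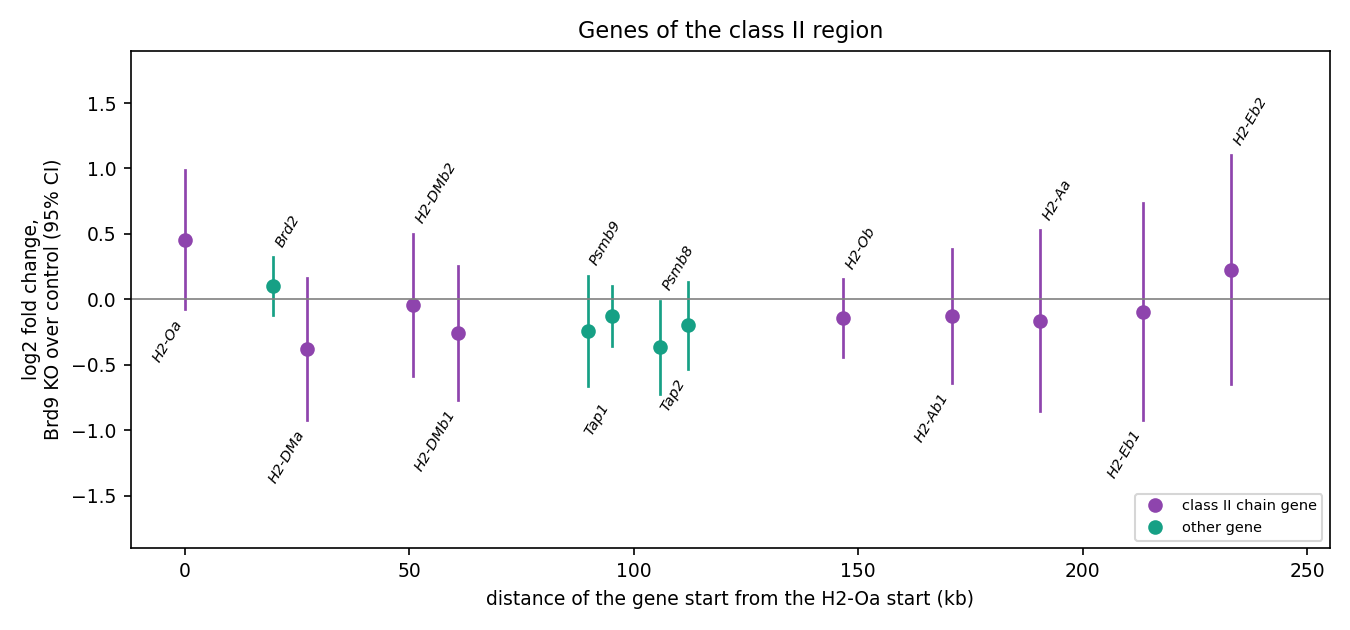
Log2 fold change, Brd9 KO over control, with its 95% confidence interval for the 14 measured genes of the class II region, placed by the distance in kb of each gene start (its lowest coordinate) from that of H2-Oa. Class II chain genes are purple and the other genes green, and only the interval of Psmb8 misses 0.

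Around the members, the rest of the pathway comprised 54 genes, of which 52 were tested, with 4 higher, 3 lower and 45 not called. Their median log2 fold change was 0.08. Of all tested genes, 15.4% were called, 9.19% higher and 6.25% lower. Among the enhanceosome and coactivator genes, none of the DNA-binding RFX and NF-Y subunits was called: Rfx5 was at 0.09 ± 0.14, Rfxap at -0.22 ± 0.13, Rfxank at 0.19 ± 0.11 and Nfya at 0.08 ± 0.10. The histone acetyltransferase gene Ep300 rose to 88.7, 115 and 75.2 CPM in Brd9 KO, against 46.8, 68.0 and 65.0 CPM in control (log2 fold change 0.63 ± 0.19, adjusted p = 0.0886). The coactivator gene Ncoa1 rose by 0.38 ± 0.12 on the log2 scale (adjusted p = 0.0956). Leaving out any library other than Brd9 KO replicate 3 ended both calls, with adjusted p of up to 0.238 for Ep300 and 0.296 for Ncoa1. Both were also lost on the TPM scale, and Ncoa1 with limma-voom and without the filter on low counts.

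Of 13 tested regulators of Ciita, 1 was called higher, 2 lower and 10 not at all, beside 15.4% of all genes called, with a median log2 fold change of 0.08. Ifngr1, the ligand-binding chain of the interferon gamma receptor, measured 191, 184 and 205 CPM in Brd9 KO, against 312, 281 and 304 CPM in control. It fell in all 3 Brd9 KO libraries, by 0.63 on the log2 scale (SE 0.10, adjusted p = 0.0116), and stayed called with any library left out. Irf8, a factor of monocyte and dendritic cell development, measured 214, 208 and 215 CPM in Brd9 KO and 340, 315 and 425 CPM in control. It fell by 0.76 (SE 0.13, adjusted p = 0.0153), with any library left out too, but was not called on the TPM scale. Jak2, the kinase attached to the second receptor chain, rose to 194, 197 and 156 CPM in Brd9 KO, against 101, 122 and 126 CPM in control (0.65 ± 0.14, adjusted p = 0.0307, or 0.114 without Brd9 KO replicate 1). Irf1 at 0.08 ± 0.15 was not called, and Ifng itself was below the filter on low counts.

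Of 15 genes for antigen processing and turnover, 1 was called, beside 15.4% of all tested genes. Mif, a cytokine that binds the invariant chain at the cell surface, fell to 185, 155 and 192 CPM in Brd9 KO, against 367, 296 and 228 CPM in control, by 0.74 on the log2 scale (SE 0.18, adjusted p = 0.0447). The call was lost without Brd9 KO replicate 1 or 2 or control replicate 1 or 2, at adjusted p of 0.105 to 0.133. The processing proteins closest to the class II groove were not called: cathepsin S (Ctss) was at -0.27 ± 0.29, the lysosomal thiol reductase gene Ifi30 at -0.09 ± 0.26 and the cathepsin inhibitor gene Cst3 at -0.28 ± 0.22. Without Brd9 KO replicate 3, Ctss (-0.70, adjusted p = 0.0197), Ifi30 (-0.48, 0.0426) and Cst3 (-0.56, 0.0453) were called lower, among 8 of these 15. In that comparison 15.3% of all tested genes were called lower. Of the 6 co-stimulation genes, Cd274, which encodes PD-L1, rose to 18.7, 21.03 and 17.02 CPM in Brd9 KO, against 12.9, 14.9 and 13.9 CPM in control (0.45 ± 0.13, adjusted p = 0.0856), a call that ended when any library other than Brd9 KO replicate 3 was left out (adjusted p up to 0.27), on the TPM scale and without the filter. Cd86 at 0.59 ± 0.32 and Cd80 at -0.18 ± 0.36 were not called.

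MHC class I, the sister pathway for cytosolic peptides, was not called either. With edgeR 0 of 19 genes were called, 1 (Psmb8) had an unadjusted p under 0.05, and DESeq2 and limma-voom called 0. The median log2 fold change was -0.22, beside -0.13 for the class II members, and the 2 lists were not tested against each other. The shared light chain gene B2m measured 1082, 943 and 1318 CPM in Brd9 KO and 1518, 1146 and 1308 CPM in control, with overlap. Summed, the 19 genes reached 7260 to 8520 CPM in Brd9 KO and 8600 to 10100 CPM in control, without overlap. The class II members summed to 315 to 603 and 365 to 496 CPM, with overlap. Taken singly, 3 of the 19 class I genes did not overlap between the groups, against 33.5% of all tested genes. Without Brd9 KO replicate 3, 5 of the 19 were called lower, beside 15.3% of all tested genes. Relative to mean control levels, class I genes had medians of -0.22, -0.32 and -0.03 in the Brd9 KO libraries, replicate 3 last, and of 0.12, -0.13 and -0.01 in control. The third Brd9 KO library was again the highest of its group, but unlike for class II it lay below control replicates 1 and 3.

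Markers of the cells that normally carry class II were read in the same libraries. Their counts of calls stand beside 6.25% of all tested genes called lower, or 15.3% without Brd9 KO replicate 3. Medians of the class II members, antigen processing, class I, B lineage and monocyte lists were all lowest in Brd9 KO replicates 1 and 2. Monocyte markers had a median of -0.86, -0.48 and 0.00 in Brd9 KO replicates 1, 2 and 3 and of -0.09, -0.13 and 0.22 in control. Their summed level was 946 to 1710 CPM in Brd9 KO and 2000 to 2500 CPM in control, none of them at 0, and 2 of 7 were called lower. These were F13a1 (log2 fold change -2.18, adjusted p = 0.00122) and Ccr2 (-0.67, adjusted p = 0.0826, lost when any library other than Brd9 KO replicate 3 was left out, up to 0.237, and also with library total scaling and on the TPM scale). Without Brd9 KO replicate 3, 4 of 7 monocyte markers were called lower, with a median log2 fold change of -0.61 in place of -0.33. B lineage medians were -0.49, -0.44 and -0.08 in Brd9 KO and 0.11, -0.20 and 0.19 in control, their sum 82.7 to 157 CPM in Brd9 KO and 99.9 to 119 CPM in control. Without Brd9 KO replicate 3, 5 of 12 tested were called lower, with a median log2 fold change of -0.60 in place of 0.06. Of 11 tested B lineage markers with all libraries the surrogate light chain genes Igll1 and Vpreb1 were called lower, at means of 0.204 and 0.394 CPM in Brd9 KO, against 1.12 and 1.33 CPM in control. The calls were lost without Brd9 KO replicate 2 for Igll1 (adjusted p = 0.101) and without Brd9 KO replicate 1 or 2 or control replicate 1 or 3 for Vpreb1 (0.102 to 0.138). The most abundant of the list, the B cell receptor gene Cd79a, was not called and took 85.1 of the 157 CPM in Brd9 KO replicate 3. Without it the sums were 48.0 to 72.0 CPM in Brd9 KO and 51.9 to 65.3 CPM in control.

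The summed levels of classical dendritic cell markers did not overlap between the groups, Brd9 KO replicate 3 included. Classical dendritic cell markers summed to 63.0 to 79.8 CPM in Brd9 KO and 108 to 116 CPM in control, none at 0, and 3 of 11 were called lower and 1 higher. Of all tested genes, 6.25% were called lower and 9.19% higher, shares that apply to the counts below as well. Mgl2, a lectin of a dendritic cell and macrophage subset, fell to 7.61, 10.5 and 14.8 CPM in Brd9 KO, against 30.2, 38.1 and 30.0 CPM in control (log2 fold change -1.58, adjusted p = 0.00963). Cd209a fell by 0.71 and Clec10a by 0.92 (adjusted p = 0.0928 and 0.0994), both lost when any library other than Brd9 KO replicate 3 was left out, up to 0.249 and 0.261, with library total scaling and on the TPM scale. The Clec10a call was also lost with DESeq2 size factors and with a filter at 1 CPM. Mgl2 and Clec10a had fractional expected counts that complete each other, such as 185.6 and 154.4 in Brd9 KO replicate 1. Reads were thus divided between them, and their values are not separate measurements. How their calls depend on that division was not tested. Itgae, the CD103 integrin chain, averaged 1.96 CPM in Brd9 KO and 0.41 CPM in control and rose by 2.23 (adjusted p = 0.00877). Plasmacytoid dendritic cell markers summed to 120 to 162 CPM in Brd9 KO and 167 to 200 CPM in control, with 3 of 8 lower (Cox6a2, Bst2 and Spib) and Klk1 at 0 in at least 1 library. Of these, Cox6a2 stayed called with any library left out, but it rests on few reads. It had 10, 7 and 11 reads in Brd9 KO and 66, 27 and 59 in control. Bst2 and Spib were lost when any but Brd9 KO replicate 3 was left out, at adjusted p of up to 0.24 and 0.256. Spib was also lost with library total scaling, without the filter and on the TPM scale. Without Bst2, the most abundant of these markers, the sums overlapped, at 73.3 to 82.4 CPM in Brd9 KO and 79.7 to 93.1 CPM in control. Macrophage markers went the other way in 7 of 11, C1qb (2.18, adjusted p = 0.0184) and C1qc (1.67, 0.0156) among them, with 2 of 11 lower (Vcam1 and Cd163) and Timd4 at 0 in at least 1 library; their sum was 223 to 302 CPM in Brd9 KO and 232 to 317 CPM in control. The methods describe removal of cells bearing CD3, B220, Gr-1, CD11b or Ter119, a step directed at mature T, B, myeloid and erythroid cells. Of 4 tested genes that encode such antigens, Itgam (1.19, adjusted p = 0.0191) and Ptprc (0.47, 0.0527) were called higher. The Ptprc call was lost without replicate 1 or 2 of either group (adjusted p up to 0.144). Ptprc encodes CD45, of which B220 is only an isoform, so its gene-level value does not measure B220. The 4 genes had medians of 0.43, 0.28 and 0.68 in Brd9 KO and -0.19, 0.03 and 0.17 in control. Of the other cells that such a preparation could hold, 1 of 7 T cell markers (Cd4), 5 of 6 basophil and mast cell markers and 5 of 6 eosinophil markers were called higher, and 1 eosinophil marker, Epx, lower. Of 8 progenitor markers Gata2 was called higher and Mpo lower. The Cd4 call was lost without Brd9 KO replicate 2 or control replicate 2 (adjusted p up to 0.116). The part of these cells in the class II values was not tested.

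**Figure D5:**
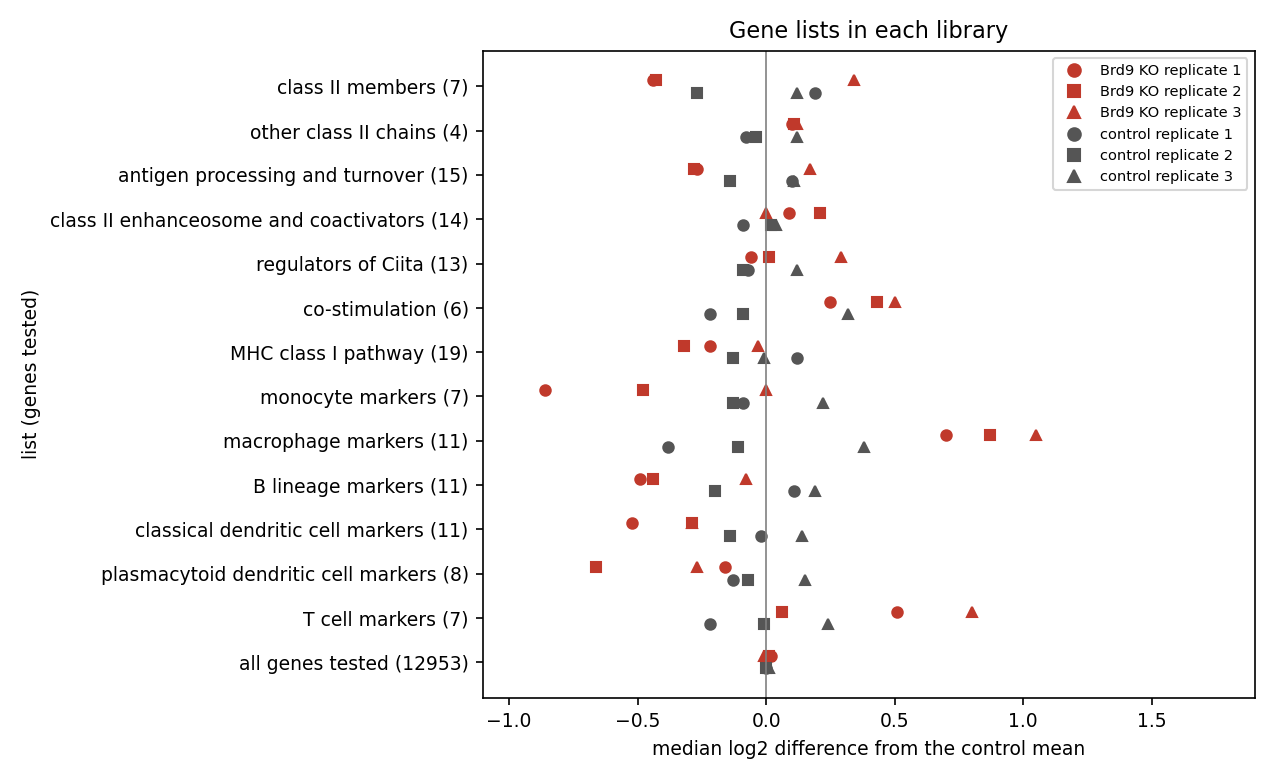
Median log2 difference from the control mean, for each gene list, in each Brd9 KO library (red, upper row) and control library (grey, lower row), with the number of genes tested in brackets. Brd9 KO replicate 3 (red triangle) is at 0.34 for the class II members and at 0.00 for monocyte markers, above Brd9 KO replicates 1 and 2 in both lists. It is also above them for other lists, B lineage markers (-0.08) among them.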

How the data were processed

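Poly(A)-selected RNA was sequenced in 6 libraries. An nf-core pipeline run by the authors aligned reads to mm10 and quantified genes with RSEM, as the methods state. The deposited files give an expected count (an estimated count that need not be whole) and a TPM for each gene, and both were made by the authors. Groups and replicate numbers came from the sample labels. The study describes its triplicates as biological, and the labels do not tie a library to an animal. Libraries of a group all differed by more than counting noise (lowest ratio of chi-square to its degrees of freedom 11.1).

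Expected counts were rounded, filtered with filterByExpr, scaled by TMM and compared with edgeR 4.0.16 (quasi-likelihood, no covariate) in R 4.3.3, with Benjamini-Hochberg adjustment over 12953 genes and calls at 0.1. Fitted over all genes, the common biological coefficient of variation was 0.175. Ratios of TPM were compared by exact permutation with scipy 1.17.1. Alternatives were DESeq2 1.42.0 size factors and test, limma 3.58.1 (voom, and log2(TPM + 1) or log2(TPM + 0.1)), library totals, other filters, a threshold of 0.05, a replicate block and omission of each library. Sums of markers without their most abundant gene were added after seeing the data. The independent hypothesis weighting of the study was not run. The code was tested on simulated data.

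The members, lists and tests were chosen with earlier results of these data known. Named were all members, all other class II chains, all genes of the class II region, up to 4 called genes of smallest p in each other list (the 2 most abundant where none was called), Brd9, and the 5 genes closest to the members' mean. Other uncalled genes and Cd79a were named after their values were seen. Gene positions are from GENCODE M21 and RefSeq (GRCm38). The labels name no batch.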

Additional observations from a re-analysis of the deposited data

How the results depend on the processing

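The members stayed at 0 of 7 calls under each alternative that kept all libraries, and ranged from 0 to 5 (all lower) with 1 library left out, 5 being without Brd9 KO replicate 3. With 1 library left out, all calls ranged from 641 to 4150, higher calls from 462 to 2141, lower calls from 179 to 2009, other class II pathway calls from 2 to 19 (0 to 7 higher, 2 to 12 lower) and class I calls from 0 to 5 (all lower). At an adjusted p under 0.05 there were 1015 calls, 672 higher and 343 lower, with 4 other class II pathway genes, 1 of them higher. Lower calls numbered 489 with library total scaling, 1258 with DESeq2, 224 on log2(TPM + 1) and 215 on log2(TPM + 0.1), and without an expression filter 2 other pathway genes were called higher. The median of all genes was 0.10 with library totals, 0.18 on log2(TPM + 1) and 0.22 on log2(TPM + 0.1), against 0.02 otherwise reported. H2-Oa, otherwise uncalled, was called higher on log2(TPM + 1) (0.65, adjusted p = 0.0602) and log2(TPM + 0.1) (0.68, 0.0552). Signs that turned were those of uncalled genes. On log2(TPM + 1) and log2(TPM + 0.1), H2-Ab1 was at 0.06 and 0.06, H2-Ob at 0.07 and 0.07, H2-DMb2 at 0.15 and 0.17 (0.04 with library totals), Tap1 at 0.09 and 0.09, Tap2 at 0.01 and 0.01, Cysltr1 at 0.03 and 0.03, Prss30 at 0.06 and 0.12, and Fcgrt at 0.03 and 0.03. The cause was not tested.

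With 1 library left out, log2 fold changes ranged from -0.60 to 0.07 (H2-Aa), -0.42 to 0.00 (H2-Ab1), -0.68 to 0.19 (H2-Eb1), -0.64 to -0.22 (H2-DMa), -0.53 to -0.11 (H2-DMb1), -0.29 to 0.41 (Cd74), -0.03 to 0.72 (Ciita), -0.09 to 0.45 (H2-Eb2), -0.13 to 0.11 (H2-DMb2), -0.62 to 0.11 (Cysltr1), -0.37 to 0.07 (Prss30), -0.65 to 0.00 (Mgst1) and -0.61 to 0.08 (Fcgrt). The ratio folds ranged from 0.89 to 1.04 (H2-Aa/H2-Ab1), 0.83 to 1.10 (H2-Eb1/H2-Ab1) and 1 to 1.24 (H2-Ob/H2-DMb1). Ratios of CPM in place of TPM, chosen after seeing the data, changed none of the 6 folds at 2 decimals. Of 36 named called genes, 0 changed sign and 16 lost the call under at least 1 alternative.

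Whether replicate numbers pair the libraries was not settled. Deviations of same-numbered libraries correlated at -0.089, 0.469 and 0.02, and those of differently numbered libraries at -0.459 to 0.384. Deviations within a group sum to 0, so these values depend on each other and cannot exclude a pairing. A replicate block gave 2077 calls against 1999, and 0 of the 7 members. Under it the calls of Ncoa1 (adjusted p = 0.111) and Spib (0.11) were lost.

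With 3 libraries a group, the confidence intervals of the members admit changes in either direction. Ciita rests on 28 to 75 reads a library.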
